A study of Saccharomyces cerevisiae with 4 samples.

Results

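The transcripts described here code for the histones of budding yeast (Saccharomyces cerevisiae) and for the enzymes and factors that modify, move and assemble nucleosomes. They are 60 genes listed by function and found by their gene symbols, out of 5539 named genes on the array, and each of the 60 had 2 probes. RNA recovered with zzMex67, a tagged form of the mRNA export receptor Mex67, was compared with total RNA on 4 two-colour arrays. Every array carried both RNA sources, so that each spot gave 1 ratio. The arrays form 1 group of 4, and a control without the tag was not analysed here. Arrays 1 and 2 held the precipitated RNA in channel 2, arrays 3 and 4 in channel 1. No source used here gives the strain, the genotype beyond the tag or the growth conditions. Nothing in the labels says that the arrays came from separate cultures, and the p-values then measure the spread between arrays, which can be purely technical.

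As background, DNA in the nucleus is wrapped around octamers of the histones H2A, H2B, H3 and H4. Acetyltransferases such as SAGA and NuA4 and deacetylases such as Rpd3 and Hda1 add and remove acetyl groups on the histone tails, remodellers such as SWI/SNF, RSC, ISWI, SWR1 and INO80 slide, evict or exchange histones, and chaperones such as Asf1 and FACT hand histones to and from DNA. The mRNAs for all these proteins must leave the nucleus, and Mex67 with its partner Mtr2 carries most mRNA through the nuclear pores.

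Ratios are given as log2 values relative to the array median, which is the median over the named genes with a ratio on at least 3 arrays. The direction is read as precipitated over total RNA, as the wording of the labels makes likely, but the labels do not state it. Read the other way, every sign below would turn. Centring subtracted log2 medians of -1.71, 1.74, -3.71 and -1.61 from arrays 1 to 4, so a position relative to the median says nothing of absolute recovery. Across all features measured on both, arrays 2, 3 and 4 correlated at r = 0.756 to 0.889 (581 to 742 features), and array 1 correlated with them at r = 0.127 to 0.239 (92 to 203 features). These features share their arrays and are not independent replicates. Between 845 and 2467 of the 12800 probes had a ratio on an array.

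Most chromatin transcripts had few ratios or none. Of the 60 genes, 28 (46.7%) had a ratio on at least 1 array and 11 (18.3%) on at least 3, beside 31.6% and 8.99% of all named genes. No ratio on any array was listed for the histone genes HHT1, HHF1, HTA1, HTB1 and HHO1 or for the deacetylase genes HDA1, RPD3, SAP30, HOS2 and HOS3. The same held for SIR1, SIR2, SIR3 and HST1 of silencing, GCN5 and ADA2 of SAGA, and ESA1, EPL1, EAF3 and YNG2 of NuA4. It also held for SNF6, SNF12 and SWI1 of SWI/SNF, STH1, RSC1, RSC8 and SFH1 of RSC, the remodeller genes ISW1 and CHD1, and the methyltransferase genes SET1, SET2 and DOT1. No source used here gives the rule by which spots lack a ratio, so a missing ratio says nothing about the transcript's level or its binding.

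Which of the 60 had a ratio moved with their place in the probe numbering. The share of named genes with a ratio ran from 1.71% to 91.6% between blocks of 400 consecutive probes. The 28 genes with a ratio lay in blocks where a median of 65.3% of named genes had one, and the 32 without lay in blocks with a median of 21.1%. Probes 8001 to 8400 held 6 of the 28, which are HHT2, HTA2, SPT7, SIN3, HST2 and NHP6A. Summed over the 60 genes, the shares of their own blocks come to 24.7, beside the 28 observed. No source used here says whether consecutive numbers lie side by side on the slide, and the part of position in the ratios themselves was not tested beyond the within-block values given below.

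Of the 11 genes on at least 3 arrays, 7 passed the test, 4 of them above the array median and 3 below it. The test was limma's moderated test of the mean against 0, two-sided, with Benjamini-Hochberg adjustment over all 596 features tested. SWC4, SPT7, ASF1 and TAF14 lay above, and SPT8, HDA2 and RSC2 lay below. Over all features 47.7% were called, 22.5% above and 25.2% below. Thus calls were common on these arrays, and 7 calls among 11 genes are not read as a property of chromatin genes. The median of the 11 means was -0.63, beside -0.00474 over all features, with a range from -2.20 to 4.23. Without array 1, the array that correlated least with the others, the counts were also 4 above and 3 below, which says little, since only HDA2 and SPT20 of the 11 had a ratio on it. All 4 columns were read as running in the same direction, since arrays of opposite channel assignment correlated above 0; a dye effect specific to each spot would also give this and was not tested. With arrays 3 and 4 turned, or without centring, 0 of the 11 were called (limma; 0 and 2 at an unadjusted p under 0.05). Only genes with ratios on at least 3 arrays could be tested, so these counts describe 11 genes and not all 60.

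**Figure D1:**
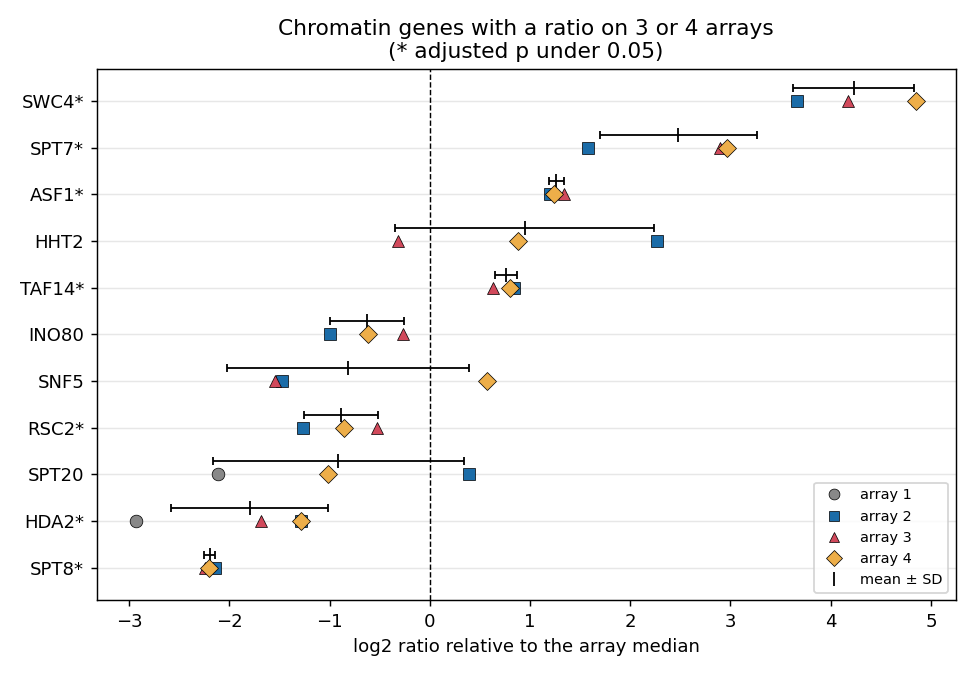
Log2 ratio relative to the array median (horizontal axis) for the 11 chromatin genes with a ratio on 3 or 4 arrays. Each symbol is 1 array, the tick with bars is the mean ± SD over arrays, and a star marks an adjusted p under 0.05 (limma); by its mean SWC4 lies highest, with arrays from 3.66 to 4.86, and SPT8 lowest, with arrays from -2.25 to -2.14, while the lowest single value is HDA2 on array 1 at -2.93.

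Among the histone genes, HHT2, 1 of the pair of histone H3 genes, was the only one that could be tested. Its ratio was 2.27 on array 2, -0.32 on array 3 and 0.88 on array 4. Thus its arrays fell on both sides of the median, and the mean of 0.94 ± 1.29 (SD, n = 3) did not pass (limma, adjusted p = 0.219). HHT1, the other H3 gene, had no ratio, and since spots for near-identical genes may bind each other's transcripts, the HHT2 values cannot be assigned to HHT2 alone. The probes of HHT2 differed by 0.30 on array 2, -1.08 on array 3 and -0.45 on array 4, second minus first. Centred within its block of probes the mean was 1.53 ± 0.94 (SD, n = 3) and passed (limma, adjusted p = 0.0477).

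The remaining histone genes had a ratio on 1 or 2 arrays and no test. HHF2, the histone H4 gene next to HHT2 in the RefSeq gene table, lay at 0.29 on array 2, and HTB2, of histone H2B, lay at 0.51 on the same array. HTA2, the H2A gene next to HTB2, lay at 0.57 on array 2 and at -1.74 on array 4. Its array 4 value came from the first probe alone, which lay at -0.04 on array 2, also below the median. The second probe lay at 1.18 on array 2. HTZ1, which codes for the variant H2A.Z, lay at -0.59 on array 2. On array 2, then, 4 of the 5 histone genes with a ratio lay above the median, as did 40.7% of all features there, whereas HHT2 on array 3 and HTA2 on array 4 lay below it. The probes of HTA2 differed by 1.21 on array 2, more than its distance from the median. The limit given for HHT2 also holds for HHF2, HTA2 and HTB2, whose partner genes HHF1, HTA1 and HTB1 had no ratio.

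HDA2, a non-catalytic subunit of the Hda1 deacetylase complex, was the only chromatin gene with a ratio on all 4 arrays. It lay at -2.93, -1.29, -1.69 and -1.28 on arrays 1 to 4. Every array placed it below the median, array 1 lowest, and the mean of -1.80 ± 0.78 (SD, n = 4), or 3.48-fold below, passed (limma, adjusted p = 0.0105). Of all features tested, 34.1% lay below the median on every array with a ratio. Its probes gave -0.61 and -1.97 on array 2, and on arrays 3 and 4 only the second probe had a ratio. Without array 1 the mean was -1.42 (limma, adjusted p = 0.00406). Centred within its block, where array 3 gave no value because fewer than 5 features had a ratio, the mean was -0.65 ± 0.58 (SD, n = 3) and the call ended (limma, adjusted p = 0.174).

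The other deacetylase and silencing genes were measured sparsely. HDA3, another subunit of the Hda1 complex, lay at -1.86 on array 1, the only array that measured it. HOS1, a class I deacetylase gene, lay at -4.25 on array 1 and 0.07 on array 2. On array 1 that value placed it at the 1.78th percentile of all features with a ratio, and on array 2 at the 61.5th. The array 1 value of HOS1 came from its second probe alone. That probe lay at -0.27 on array 2, where the first lay at 0.41. SIN3, the scaffold of the Rpd3 complexes, lay at -0.03 on array 2. SIR4, a structural protein of silent chromatin, lay at -2.51 on array 1. HST2, a sirtuin gene, lay at 0.43 on array 2 and -0.08 on array 4.

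Values on array 1 need a further measurement beside them. Of the 6 chromatin genes with a ratio there, HDA2, HDA3, SIR4, HOS1 and SPT20 lay below the median and NHP6B above it, where 23.2% of all features on that array lay above. These 5 all lay in the 3 blocks with the most ratios on array 1, where 35.5%, 51.0% and 43.25% of the probes had one. The median for array 1 rested on 100 genes, and over all its probes with a ratio the deposited median was lower, at log2 -3.19. Relative to their own blocks HDA3 and SPT20 lay at -0.04 and -0.08 on array 1, SIR4 at -0.69, HDA2 at -1.11 and HOS1 at -2.22. HDA3 and SPT20 were therefore near the middle of their blocks on that array, and HOS1 and HDA2 were below it.

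**Figure D2:**
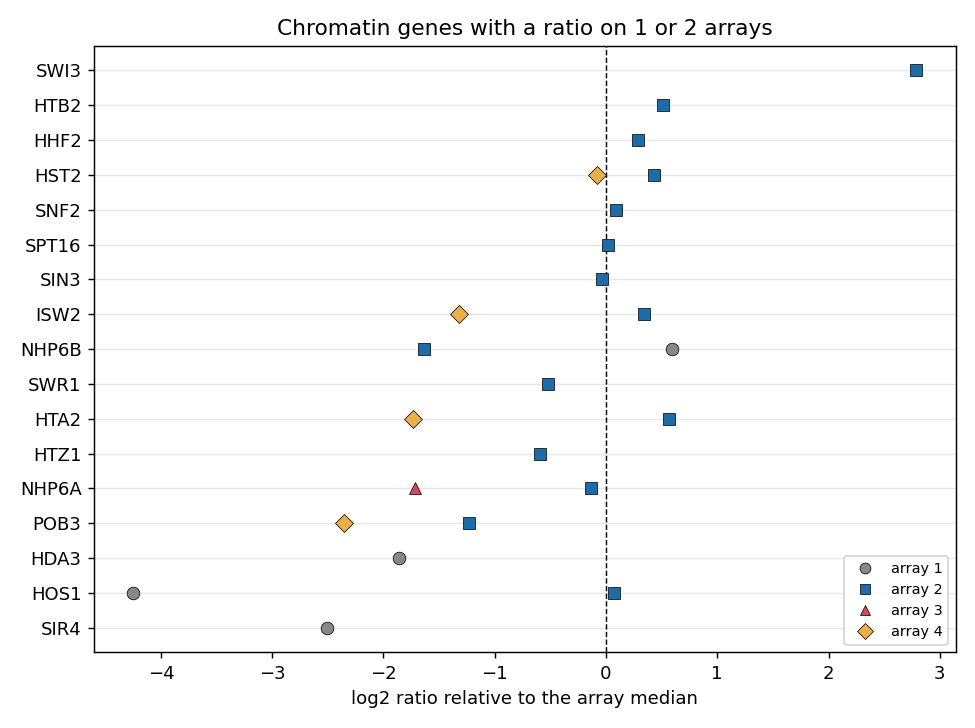
Log2 ratio relative to the array median (horizontal axis) for the 17 chromatin genes with a ratio on 1 or 2 arrays, each symbol 1 array; none was tested. The values run from -4.25 for HOS1 on array 1 to 2.79 for SWI3 on array 2.

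Subunits of SAGA, the coactivator that carries the acetyltransferase Gcn5, lay on both sides of the median. SPT7, a scaffold subunit, lay at 1.58, 2.90 and 2.96 on arrays 2, 3 and 4. All 3 arrays placed it above the median, array 2 by the least, and the mean of 2.48 ± 0.78 (SD, n = 3), or 5.58-fold above, passed (limma, adjusted p = 0.00876). On array 3 its probes gave 3.53 and 2.27. Centred within its block it stood at 3.07 ± 1.19 (SD, n = 3; limma, adjusted p = 0.0128). Without array 4 the mean was 2.24 over 2 values, and the call ended (limma, adjusted p = 0.0513).

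SPT8, the SAGA subunit known for its contact with the TATA-binding protein, lay at -2.14, -2.25 and -2.21 on arrays 2 to 4. These arrays differed by little, and the mean of -2.20 ± 0.05 (SD, n = 3), or 4.59-fold below, passed (limma, adjusted p = 0.00444). Both probes of SPT8 were measured on each of these arrays and ranged from -2.41 to -1.88. Within its block the mean was -1.43 ± 0.11 (SD, n = 3) and still passed (limma, adjusted p = 0.0116). The difference SPT7 minus SPT8, from which the centring of an array drops out, was 3.72, 5.15 and 5.17 on arrays 2 to 4. The pair was set side by side after the values were seen, so the difference is a description with no test.

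SPT20, which holds SAGA together, lay at -2.11 on array 1, 0.39 on array 2 and -1.02 on array 4. These values spread widely, and the mean of -0.91 ± 1.25 (SD, n = 3) did not pass (limma, adjusted p = 0.221). It became 0.06 ± 0.53 (SD, n = 3) when centred within its block.

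SWC4, a subunit shared by the acetyltransferase NuA4 and the remodeller SWR1, had the highest mean of all 596 features tested. It lay at 3.66 on array 2, 4.17 on array 3 and 4.86 on array 4. On each of these arrays it stood at or above the 99.8th percentile of the features with a ratio. The mean of 4.23 ± 0.60 (SD, n = 3), or 18.7-fold above the median, passed (limma, adjusted p = 0.00381), and the next feature had a mean of 3.72. Its first probe gave 3.44, 4.00 and 4.29 and its second 3.88, 4.34 and 5.42 on arrays 2 to 4. Both probes thus placed SWC4 far above the median on every array that measured it. Within its block, which lay above the median as a whole, the mean was 2.89 ± 0.17 (SD, n = 3; limma, adjusted p = 0.00606).

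**Figure D3:**
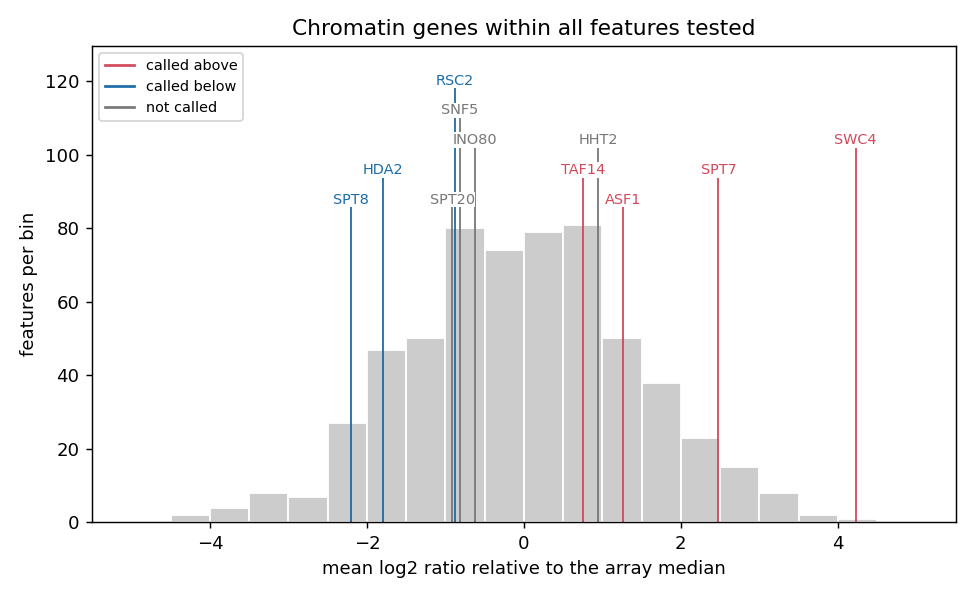
Distribution of the mean log2 ratio relative to the array median over all 596 features tested (grey bars, features per bin), with the 11 chromatin genes as vertical lines. SWC4, at 4.23, lies beyond the rest of the distribution, and SNF5, RSC2, SPT20 and INO80 lie close together between -0.91 and -0.63.

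TAF14, a protein found in TFIID, SWI/SNF and INO80 among other complexes, lay at 0.84, 0.63 and 0.80 on arrays 2 to 4. The arrays differed by little, and the mean of 0.76 ± 0.11 (SD, n = 3), or 1.69-fold above, passed by a small margin (limma, adjusted p = 0.0427). Only 1 of its probes had ratios. Within its block the mean was 0.11 ± 0.33 (SD, n = 3), and the call ended (limma, adjusted p = 0.745). SWC4 exceeded TAF14 by 2.82, 3.54 and 4.06 on arrays 2 to 4. SWR1, the ATPase that exchanges H2A for H2A.Z, lay at -0.52 on array 2 and had no other ratio.

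SNF5, a core subunit of the SWI/SNF remodeller, lay at -1.48 on array 2, -1.54 on array 3 and 0.58 on array 4. Array 4 stood apart on the other side of the median, and the mean of -0.82 ± 1.20 (SD, n = 3) did not pass (limma, adjusted p = 0.252). Only 1 of the SNF5 probes had ratios. SWI3, a scaffold subunit of the same complex, lay at 2.79 on array 2 by 1 probe. That was the 98.3rd percentile of the array, and SWI3 had no other ratio. SNF2, the ATPase, lay at 0.09 on array 2. On array 2 alone the measured genes SNF5, SWI3 and SNF2 therefore ran from -1.48 to 2.79.

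RSC2, a bromodomain subunit of the RSC remodeller, lay at -1.26, -0.53 and -0.86 on arrays 2 to 4. All 3 values were below the median, and the mean of -0.88 ± 0.37 (SD, n = 3), or 1.84-fold below, passed narrowly (limma, adjusted p = 0.0460). Under 16 alternatives it was called in 6, the fewest of the 7 called genes, and TAF14 in 8. With probes kept apart, the first RSC2 probe had a mean of -0.65 and the second -1.12 (limma, adjusted p = 0.0889 and 0.0276). The first probe was the one counted among the alternatives. Without array 2, 3 or 4, each time with 2 values left, the call of RSC2 ended (limma, adjusted p = 0.131, 0.0868 and 0.199). The call also ended within its block, at -0.62 ± 0.45 (SD, n = 3; limma, adjusted p = 0.153). A random block for the code in the array titles ended it too (limma, adjusted p = 0.0522). INO80, the ATPase of the remodelling complex of that name, lay at -0.996, -0.27 and -0.62 on arrays 2 to 4. It was below the median on each, with a mean of -0.63 ± 0.37 (SD, n = 3) that did not pass (limma, adjusted p = 0.105). ISW2, an ISWI-type ATPase, lay at 0.34 on array 2 by 1 probe and at -1.32 on array 4 by the other, so these values do not compare the arrays.

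The chaperones and the HMG-box proteins, which bend DNA, were the only group in which every gene had a ratio. Their genes lay in blocks of probes where 62.0% to 91.6% of named genes had one, so this is not read as a trait of the group. ASF1, the chaperone of histones H3 and H4, lay at 1.20, 1.34 and 1.24 on arrays 2 to 4. The arrays lay close together, and the mean of 1.26 ± 0.07 (SD, n = 3), or 2.40-fold above, passed (limma, adjusted p = 0.0115). Within its block it stood at 1.65 ± 0.38 (SD, n = 3; limma, adjusted p = 0.0116). Only 1 of its probes had ratios. Without array 3 or array 4 just 2 values were left, with means of 1.22 and 1.27. The call then ended (limma, adjusted p = 0.0605 and 0.0875).

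The subunits of FACT, a chaperone that helps RNA polymerase pass nucleosomes, lay apart on array 2, with SPT16 at 0.01 and POB3 at -1.23. On array 4 POB3 lay at -2.36, again below the median. NHP6A and NHP6B, a pair of closely related HMG genes, were measured together only on array 2, at -0.14 and -1.64. NHP6A lay at -1.72 on array 3, and NHP6B at 0.59 on array 1. Signal shared between similar genes is possible for this pair as well.

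The 17 genes with 1 or 2 ratios gave a different picture on different arrays. On array 2, 9 of the 15 measured lay above the median and 6 below, with a median of 0.07, where 40.7% of all features with a ratio on that array lay above. On array 4, 0 of 4 lay above, beside 44.2% of all features, with a median of -1.53 and values from -2.36 to -0.08. Of the genes on both arrays 2 and 4, HTA2, HST2 and POB3 were lower on array 4, where each had 1 probe with a ratio against 2 on array 2. The probe with a ratio on both arrays was lower on array 4 as well. It gave -0.04 and -1.74 for HTA2, 0.80 and -0.08 for HST2, and -1.73 and -2.36 for POB3. For ISW2 no probe had a ratio on both arrays. Some of these values come from ratios of small whole numbers. In lowest terms the HTA2 probe on array 4 read 5 to 51, and the same probe on array 2 read 13 to 4. A POB3 probe on array 2 read 2 to 1. On array 1 the HOS1 probe read 3 to 187 and an HDA3 probe 2 to 21. Tested genes had such ratios too. On array 1 the HDA2 probes read 43 to 766 and 7 to 247, and the SPT20 probes 7 to 81 and 7 to 122. The intensities themselves may be any multiple of these and were not used here.

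The probes of a gene could also be compared on 1 array. For the chromatin genes their difference had a median size of 0.59 log2 units over 31 pairs of values and a largest of 1.36, beside a median of 0.45 and a largest of 5.21 over 1615 pairs for all genes with 2 probes. No source used here says whether both probes of a gene carry the same sequence, so these differences can hold both measurement error and differences between probes. Of the tested genes, ASF1, TAF14 and SNF5 have no such pair, and of those not tested, SWI3, SNF2, HTB2, HHF2 and ISW2. The median SD over arrays was 0.60 for the 11 genes and 0.50 for all features.

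Each of the 7 called genes lay on 1 side of the median on every array with a ratio, and so also within each channel assignment and each code in the array titles. Of all features tested, 34.1% lay above the median on every such array and 34.1% below, and calls favour such genes, so this is a description. The code, labelled A for arrays 1 and 3 and B for arrays 2 and 4, has no stated meaning. SWC4 had 4.17 in A and 4.26 in B, SPT7 2.90 and 2.27, and ASF1 1.34 and 1.22. SPT8 had -2.25 in A and -2.17 in B, HDA2 -2.31 and -1.29, RSC2 -0.53 and -1.06, and TAF14 0.63 and 0.82. Except for HDA2, code A is array 3 alone, so that these values cannot be given a spread within A.

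**Figure D4:**
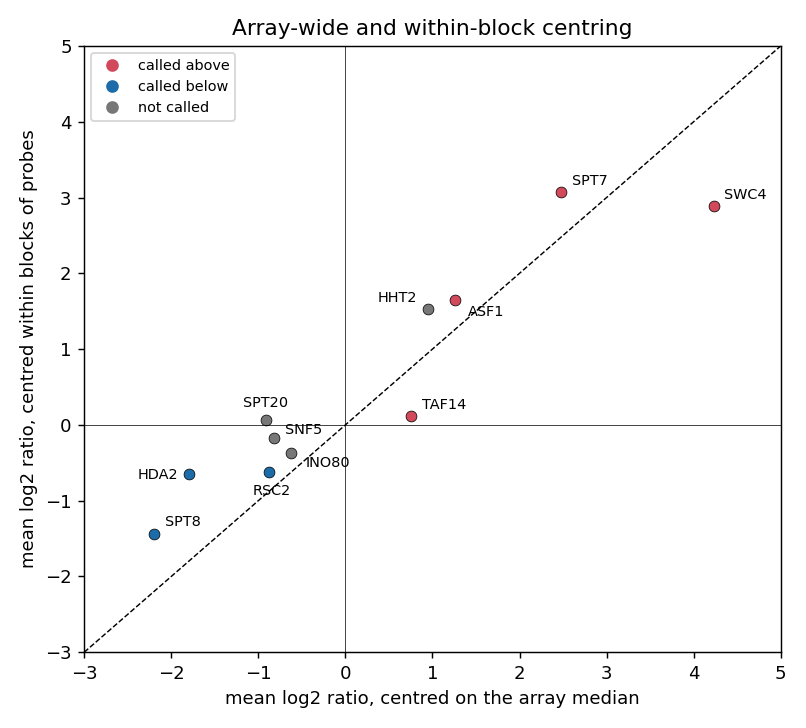
Mean log2 ratio of the 11 chromatin genes centred on the array median (horizontal axis) and centred within blocks of 400 consecutive probes (vertical axis), with the dashed line marking equal values and colours giving the call under array-wide centring. SWC4 and TAF14 lie below the line, and all the other genes lie above it. Of those above it, SPT7, ASF1 and HHT2 lie farther from 0 within blocks. SPT8, HDA2, RSC2 and the uncalled SPT20, SNF5 and INO80 lie nearer to 0.

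Other genes of the same complexes were counted from a list of 134 written out by name. Of these, 132 were on the array, 40 showed any ratio and 11 could be tested. Of the latter, 5 passed the test, 1 above the median and 4 below it (45.5%, beside 47.7% of all features), and the median of the means was -0.28. Above lay SAS4, of the SAS acetyltransferase complex, at 0.80, 0.77 and 1.18 on arrays 2 to 4 (mean 0.92 ± 0.23, SD, n = 3; limma, adjusted p = 0.0311).

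Below the median lay ARP8, an actin-related subunit of the INO80 complex, at -1.50, -2.73 and -2.88 on arrays 2 to 4 (mean -2.37 ± 0.76, SD, n = 3; limma, adjusted p = 0.00946). IOC2, a partner of the remodeller Isw1, had a mean of -1.84 ± 0.19 (SD, n = 3; limma, adjusted p = 0.00575). YAF9, which like SWC4 belongs to NuA4 and SWR1, had a mean of -1.61 ± 0.36 (SD, n = 3; limma, adjusted p = 0.00982). RXT2, of the large Rpd3 complex, had a mean of -1.53 ± 0.52 (SD, n = 3; limma, adjusted p = 0.0158). Within blocks the means of these 4 were -1.13, -0.79, -0.55 and -0.35, and 0 genes of the wider list then passed below (limma; 2 at an unadjusted p under 0.05).

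Genes for subunits of 1 complex thus did not always share a side of the median on these arrays. SWC4 exceeded YAF9 by 5.01, 6.18 and 6.31 on arrays 2 to 4, and SPT7 exceeded SPT8 on the same arrays by the amounts given above. Of genes for the INO80 complex, INO80 and ARP8 both lay below the median on arrays 2 to 4, with INO80 higher by 0.50, 2.46 and 2.26, IES4 lay on both sides, at -0.52, 0.55 and -0.88, and TAF14 lay above. These pairs were chosen after their values were seen, and no test of shared direction was made. An offset between the blocks of 2 genes stays in such a difference. Within blocks the means were 2.89 for SWC4 and -0.55 for YAF9, and 3.07 for SPT7 and -1.43 for SPT8. They were -0.36 for INO80, -1.13 for ARP8, 0.48 for IES4 and 0.11 for TAF14.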

How the data were processed

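The deposited values are log10 ratios of the 2 channels, 1 per probe and array. No source used here gives the authors' background correction, normalization or rule for missing ratios. The base was read from the values: taken as log10, 76.1%, 20.9%, 1.64% and 7.28% of the ratios on arrays 1 to 4 equal a ratio of whole numbers up to 1000, and at most 0.828% do so taken as log2 or natural logs. The number of probes with a ratio is the only measure of depth.

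Gene names came from GEO's annotation of the platform, of which symbols may be outdated: it gives 1 symbol for 11138 probes, several for 0 and none for 1662, and 11128 of the named ones matched the RefSeq gene table (assembly R64) by Entrez identifier. Repeated rows (2) were averaged with their probe, ratios were converted to log2, and a gene's value on an array is the mean over its probes. Centring used the array's median over the 498 named genes on at least 3 arrays (100, 496, 480 and 491 of them on arrays 1 to 4). The 596 features on at least 3 arrays (98 were unnamed probes) were fitted in limma 3.58.1 (lmFit, eBayes; R 4.3.3) and called at an adjusted p under 0.05. The test was checked on simulated ratios. Within blocks, each array was centred on the median over all features with a ratio in the block, at least 5. The random block used statmod 1.5.0, and the rest Python 3.11.15 with pandas 2.3.3, numpy 2.4.6 and matplotlib 3.10.9.

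The members and lists were chosen with earlier results of these data known. Every gene of the 60 with a ratio is named with its values, as is every called gene of the wider list. Coordinates were used only to find neighbouring genes in the RefSeq gene table, and sequences were not used here. Alternatives were other centrings and scalings, other limits on missing ratios, each array left out, a term for the channel, the title code as a block, another variance model, probes kept apart, and the sign of arrays 3 and 4 turned.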

Additional observations from a re-analysis of the deposited data

How the results depend on the processing

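Among the 11 chromatin genes, 142 of 177 alternative values kept their sign and their side of the threshold. This total includes genes that stayed uncalled, such as INO80 and SNF5 in all 16 alternatives. It also includes alternatives that cannot move a gene's mean, such as leaving out array 1 for genes without a ratio there. Every call depends on centring and on reading all arrays in 1 direction. Without centring, limma called 0 of 596 features above and 0 below (0 and 52 at an unadjusted p under 0.05). None of the chromatin genes was called then (0 above, 0 below; 0 and 2 unadjusted), nor was any of the wider list (0 and 0; 0 and 2 unadjusted), and the mean of HHT2 became -0.25 and that of TAF14 -0.44. With arrays 3 and 4 turned against the others, limma called 0 and 0 features (0 and 1 unadjusted), 0 and 0 chromatin genes and 0 and 0 of the wider list (0 unadjusted in each), and the means became -1.43 for SPT7, 0.77 for SPT8, -1.79 for SWC4, -0.20 for TAF14, 0.041 for RSC2 and -0.46 for ASF1.

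Centred within blocks, limma called 89 of 594 features below, with 1 chromatin gene (SPT8) and 0 of the wider list (2 at an unadjusted p under 0.05). The 4 chromatin genes called above were then SWC4, SPT7, ASF1 and HHT2, and the mean of SPT20 became 0.064. Of the 80 features on all 4 arrays, 13 were called above and 8 below. HDA2, the 1 chromatin gene among them, was called below, so 0 were called above. With features on at least 2 arrays, 21 genes of the wider list could be tested. Of these, 0 were called above (2 unadjusted) and 7 below, beside 109 and 149 of 938 features. Quantile normalization called 2 of 11 genes of the wider list above, beside 138 of 596 features. A term for the channel called 0 of 11 above (2 unadjusted), beside 118 of 596 features. With probes kept apart, 209 of 822 probes were called above.

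With 1 array left out, 45 to 168 features were called above and 41 to 174 below. Of the chromatin genes 1 to 4 were called above and 2 to 3 below. Of the wider list 0 to 2 were called above and 0 to 4 below. The lowest counts over all features came without array 4, when SWC4, SPT8 and HDA2 were called among the chromatin genes, and the cause was not tested. TAF14 lost its call without array 2, 3 or 4, each time with 2 values left (limma, adjusted p = 0.112, 0.129 and 0.237). Each ratio already pairs precipitated with total RNA on 1 array, and since all 4 arrays form 1 group, no groups could be paired beyond that. The number of arrays, and the ratios missing for 32 of the 60 genes, limit what could be compared.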
